A study of Mus musculus with 2 samples.

Results

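The shortest sequences in these small RNA (sRNA) libraries that do not come from an annotated miRNA hairpin are described here. A tag is a distinct sequence with its number of reads, and a short tag is one of 18 to 20 nt with at least 10 reads over both libraries that matches no miRNA hairpin of GENCODE vM21 without mismatch. By this rule 24428 short tags were found among 1766298 distinct tags, of which 96635 of any length had at least 10 reads. The short tags were chosen by their length and by their reads summed over both libraries, so their abundance is a description and not a result. At the limit of the rule, 1577 short tags had exactly 10 reads, with 8009 of these reads in DMSO and 7761 in AICAR, and 1990 non-hairpin tags of the same lengths had 9 reads and were left out (8974 and 8936 reads).

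Both libraries came from J1, a line of mouse embryonic stem cells kept on gelatin with LIF, and AICAR is a nucleoside that enters cells and activates the kinase AMPK. Cells received 1 mM AICAR or the same volume of DMSO for 24 h, and 1 library was sequenced from the RNA of each culture after selection of small RNA by size. The control is titled J1_U in its label but is labelled DMSO by treatment, and it was used as the DMSO library. With 1 library per condition no difference below has a replicate check, and no test was made.

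The DMSO library held 18870345 clean reads and the AICAR library 21091226. Levels are given in RPM, which stands for reads per 1000000 clean reads, and 1 read equals 0.0530 RPM in the former and 0.0474 RPM in the latter. All ratios are RPM in AICAR over RPM in DMSO. Their 95% intervals are exact binomial intervals and those of shares are Wilson intervals, and both cover counting error only. Reads copied by PCR are not independent molecules, so these intervals can be too narrow even for that error. A difference between culture dishes, extractions or library preparations is not covered by them and cannot be told apart from the treatment.

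Short RNA outside the miRNA pathway consists largely of pieces of abundant structured RNA, above all ribosomal RNA (rRNA) and transfer RNA (tRNA). Such pieces arise by cleavage in loops and by trimming from either end, and many of them begin or stop at fixed places. Mature tRNA carries the letters CCA at its 3′ end, which an enzyme adds after transcription, and its internal promoter holds a B box and an A box whose letters can be searched for in a tag. The shortest pieces lie at the lower edge of the size selection.

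The most abundant short tag with an exact transcript match came from 18S rRNA, the RNA of the small ribosomal subunit. GENCODE places this sequence on chromosome 17 of GRCm38, where Gm42418 (chr17:39846958-39848788, plus strand, annotated as a lincRNA) overlaps the rRNA entry CT010467.1 that is annotated on the minus strand. The 8 most abundant short tags of this locus are shown because they are its most read tags, with their first and last base in capitals.
18S locus tag 1: AgaagacggtcgaacttgA
18S locus tag 2: TtaaaaagctcgtagttggA
18S locus tag 3: AaggaattgacggaagggcA
18S locus tag 4: AtaacctcgggccgatcgcA
18S locus tag 5: CgtagttggatcttgggaG
18S locus tag 6: AtggaataggaccgcggtT
18S locus tag 7: CtaggaataatggaataggA
18S locus tag 8: CgtagttggatcttgggA

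The first of these tags lies at chr17:39848120-39848138 and the second at chr17:39847025-39847044, both on the plus strand. Tags 5 and 8 have the same start, at position 39847035, and differ only in where they stop. Tag 1 had 56185 reads (2977 RPM) in DMSO and 55923 reads (2651 RPM) in AICAR, a ratio of 0.891 (0.880 to 0.901). Tag 2 had 28082 reads (1488 RPM) in DMSO and 11334 reads (537 RPM) in AICAR, a ratio of 0.361 (0.353 to 0.369). Tag 3, at chr17:39847554-39847573, had 28228 reads (1496 RPM) against 6196 reads (294 RPM), a ratio of 0.196 (0.191 to 0.202). All 8 had a lower RPM in the AICAR library, with ratios from 0.196 to 0.891 within the same RNA.

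Pieces of tRNA were looked for by the CCA end and by the box letters, and examples are shown. CCA at the end and the B box core GGTTCGA are in capitals, and in the last tag the first and last base.
CCA tag 1: tccccggcatctccaCCA
CCA tag 2: ttcgatccccggcatctCCA
longer tag behind CCA tag 1: GGTTCGAtccccggcatctcca
Ano3: GgggatgtagctcagtggtA

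CCA tag 1 continues the longer tag by the 3 added letters, whereas CCA tag 2 stops where the longer tag stops, so its last 3 letters belong to that tag and are no added tail. An end in CCA therefore does not by itself mark an added tail. CCA tag 1 had 1881 reads in DMSO and 961 in AICAR (ratio 0.457, 0.422 to 0.494), and CCA tag 2 had 394 and 806 (1.83, 1.62 to 2.07). The tag listed under Ano3 holds the A box letters TAGCTCA. It matches the annotated UTRs of Ano3 (chr2:110656210-110656229, minus strand) and of Dennd5b (chr6:148990480-148990499, minus strand), and it had 20862 reads in DMSO and 17463 in AICAR (0.749, 0.734 to 0.764). Reads shared by such copies cannot be divided among them.

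The short tags together made up a smaller share of the AICAR library. They held 3491839 reads or 18.5% of the clean reads in DMSO (185044 RPM), and 3027965 reads or 14.4% in AICAR (143565 RPM), which is a ratio of 0.776 (0.775 to 0.777). Per length, the ratio was 0.616 (0.614 to 0.618) for the 4856 tags of 18 nt, 0.768 (0.766 to 0.770) for the 8432 tags of 19 nt and 0.837 (0.836 to 0.839) for the 11140 tags of 20 nt. The share thus fell most for the shortest tags. Of the short tags, 22757 were read in both libraries, 480 in DMSO alone and 1191 in AICAR alone. In bulk RNA a lower content per cell and fewer cells of a kind cannot be told apart.

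Among longer non-hairpin tags the ratio rose above 1 and then fell again. It was 0.844 at 21 nt, close to the value at 20 nt. Tags of 21 to 23 nt together had a ratio of 0.979 (0.978 to 0.981) and tags of 24 to 27 nt a ratio of 1.06 (1.06 to 1.07), with 1.21 at 25 nt. It was below 1 from 26 nt on and reached 0.515 at 30 nt. Hairpin tags of 18 to 20 nt, which are shortened miRNAs and other hairpin pieces, had a ratio of 0.548 (0.544 to 0.552), while hairpin tags of 22 nt had 1.46. The reads on all hairpin tags with at least 10 reads rose from 2223005 to 3359896 between the libraries, and since RPM values are parts of a fixed whole, this moves with the lower share of the short tags. Its part in the result was not tested.

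**Figure D1:**
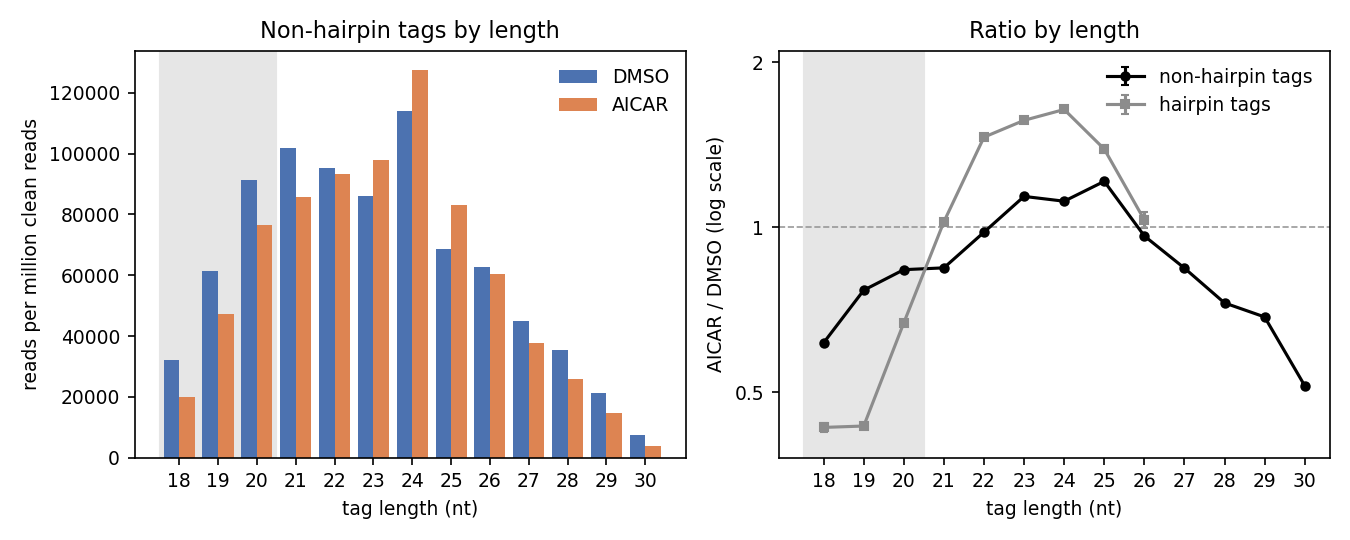
Left: RPM of non-hairpin tags by tag length, with the DMSO library in blue and the AICAR library in orange. Right: the ratio AICAR over DMSO on a log scale for non-hairpin tags (black) and hairpin tags (grey), with 95% intervals for counting error that are mostly smaller than the points; the grey band marks 18 to 20 nt, where both series lie below 1.

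Single short tags were compared where they had at least 100 reads over both libraries. Of 4969 such tags, 2003 (40.3%) were at least 2-fold lower in AICAR and 909 (18.3%) at least 2-fold higher, with a library without a read set to 3 reads. Over all 20064 tags of any length and origin, 24.5% were lower and 22.5% higher by the same limits. The median log2 ratio was -0.73 for the short tags and -0.13 for all tags. The share of lower tags was 58.6% at 18 nt, 39.7% at 19 nt and 32.5% at 20 nt, and it was 18.8% for non-hairpin tags of 21 to 23 nt. Short tags with a match on the sense strand of a transcript were rarely higher (37 of 735, or 5.03%), while those without such a match were higher in 872 of 4234 cases (20.6%).

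**Figure D2:**
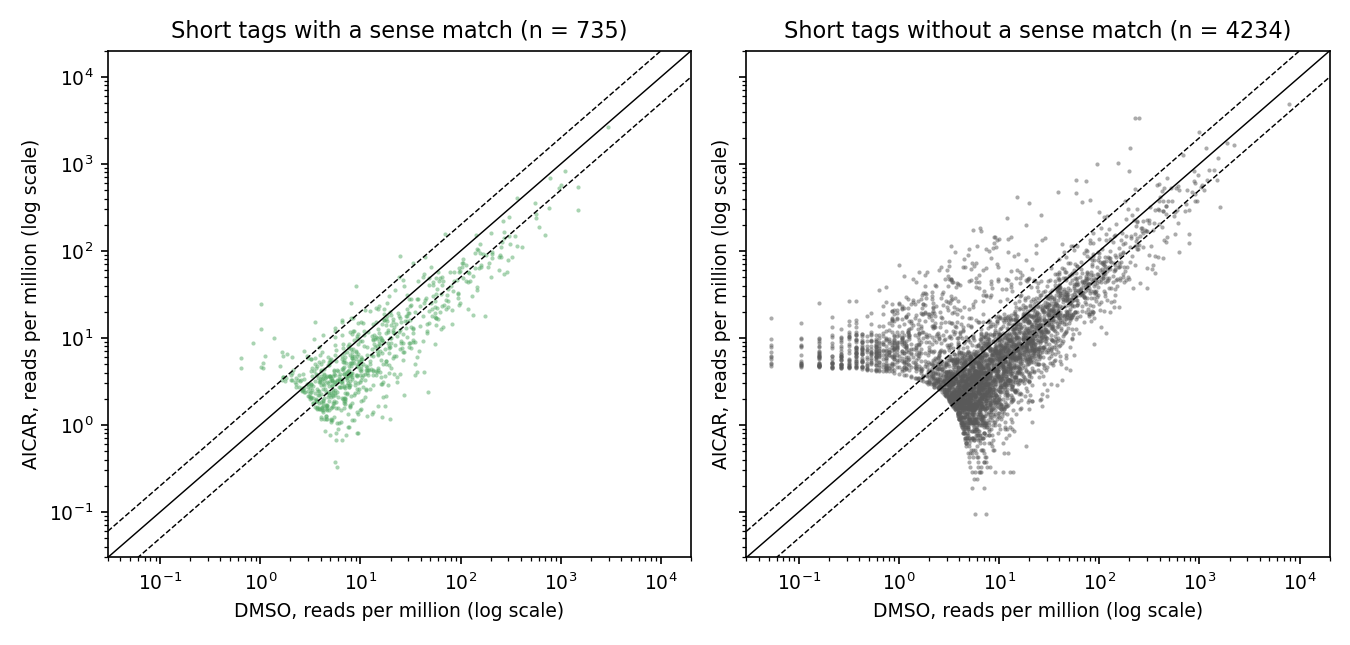
RPM in AICAR against RPM in DMSO, both on log scales, for short tags with at least 100 reads over both libraries; the solid line marks equal values, the dashed lines 2-fold differences, and a library without a read is drawn at 3 reads. The 735 tags with a match on the sense strand of a transcript (left) form 1 band mostly below the line of equality, and the 4234 without one (right) form a like band plus a cloud of tags above the upper dashed line.

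The reads were spread over many tags, with a steep head. The most abundant short tag, the same in both libraries, held 4.23% of the short tag reads in DMSO (4.21% to 4.25%) and 3.45% in AICAR (3.43% to 3.47%). The 10 most abundant of each library held 12.9% in DMSO and 17.04% in AICAR, and the 100 most abundant 41.0% and 44.6%. Of the 24428 tags, 175 in DMSO and 148 in AICAR held 50% of the reads. Of the 10 most abundant tags 4 were in both lists, and of the 100 most abundant 70 were. Non-hairpin tags of 21 to 23 nt had the opposite order, with 16.5% of their reads on 10 tags in DMSO and 12.1% in AICAR.

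The single most abundant short tag, of 20 nt, had 147684 reads (7826 RPM) in DMSO and 104335 reads (4947 RPM) in AICAR, a ratio of 0.632 (0.627 to 0.637). It matched no transcript exactly, but it differed by the substitution T15G from the hairpin of Mir6240, with the hairpin's base first and the position counted from the 5′ end of the tag. Altogether 238 short tags lay within 1 mismatch of a hairpin, with 5.59% of the short tag reads in DMSO and 4.82% in AICAR, and 27 of them with 82.0% of these reads lay near Mir6240. Among the 10 most abundant short tags, 1 matched a transcript, which was 18S locus tag 1. Another 2 of them, unmatched and of 20 and 19 nt, rose from 4332 to 71967 reads (ratio 14.9, 14.4 to 15.3) and from 4650 to 70848 reads (13.6, 13.2 to 14.0).

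By their matches the short tags fell into 13 groups, of which 12 had a ratio below 1. No match on either strand of a transcript and no CCA end was found for 20365 tags, with 73.9% of the short tag reads in DMSO and 80.4% in AICAR (ratio 0.844, 0.842 to 0.845). The transcripts used here hold no nuclear tRNA genes and only part of the 45S rRNA precursor, and tags were not matched to the genome, so the origin of these tags was not tested. The 1295 tags of rRNA and of the 45S locus followed, with 14.6% and 9.76% of the reads and a ratio of 0.519 (0.517 to 0.522). Tags on the opposite strand of a transcript alone numbered 778 (5.10% and 4.80%, ratio 0.730), and 649 of them lay opposite CT010467.1, which is the sense strand of 18S rRNA. These 649 tags had 169509 reads in DMSO and 139429 in AICAR (0.736, 0.731 to 0.741). They are 18S pieces by sequence but are not counted in the rRNA group.

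**Figure D3:**
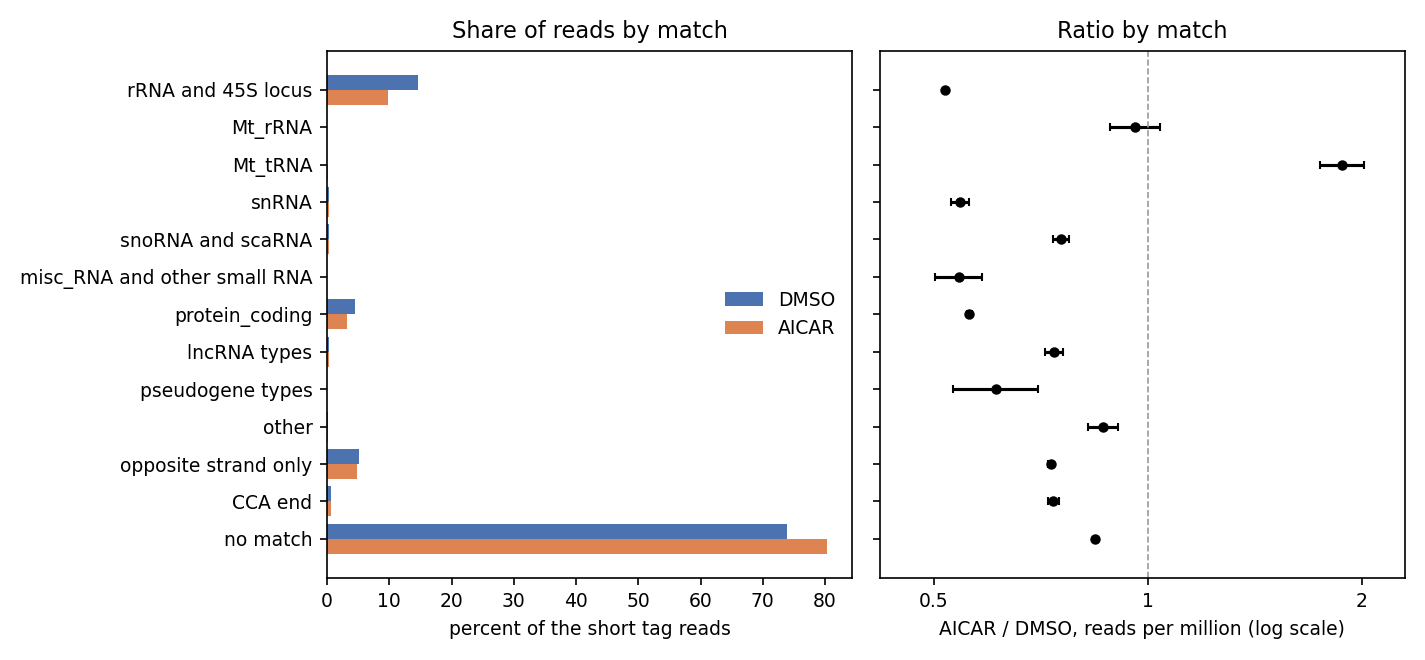
Left: share of the short tag reads in each group of matches, with DMSO in blue and AICAR in orange. Right: ratio of RPM, AICAR over DMSO, on a log scale with 95% exact binomial intervals for counting error; mitochondrial tRNA is the group to the right of 1, and the interval of mitochondrial rRNA holds 1.

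Within rRNA the decrease was common to most tags. Of 441 compared tags, 246 (55.8%) were at least 2-fold lower and 24 (5.44%) at least 2-fold higher, against 24.5% and 22.5% over all tags, and the median log2 ratio was -1.15 against -0.13. Tags of Gm42418 fell from 501501 to 289992 reads (0.517, 0.515 to 0.520). For rRNA tags of 21 to 23 nt the ratio was 0.731 (0.729 to 0.733) and for those of 24 to 27 nt 0.764 (0.761 to 0.767), so longer rRNA tags were lower too, but less so. The 49 tags of 5S rRNA, a small RNA of the large ribosomal subunit with many gene copies, had 5252 reads in DMSO and 3422 in AICAR (0.583, 0.558 to 0.609). Most copies share their tags and cannot be divided. Among copies with fewer of these tags, n-R5s71 had 3791 and 1919 reads (0.453, 0.428 to 0.479) on 19 tags and n-R5s43 had 738 and 978 (1.19, 1.08 to 1.31) on 2 tags.

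Along the 18S locus, taken as the plus strand of chr17:39846353-39848788, 1758 short tags held 670153 reads in DMSO and 428809 in AICAR (0.572, 0.570 to 0.575). Here the tags opposite CT010467.1 are included. Of 666 compared tags, 325 (48.8%) were at least 2-fold lower and 35 (5.26%) at least 2-fold higher, against 24.5% and 22.5% over all tags. All 1758 are called the locus tags below. The locus tags started at 839 of 2436 positions, and the 10 most used starts held 38.3% of the reads, so coverage stood in narrow peaks. Peaks were chosen by their height in DMSO, and AICAR was read at the same places. The highest in DMSO, 691 nt from the first base, had 5762 RPM in DMSO and 2650 RPM in AICAR. The peak at 1771 nt, made mainly by 18S locus tag 1, had 3977 and 3380 RPM, and that at 1205 nt, where 18S locus tag 3 lies, had 3195 and 677 RPM. No short tag matched only the minus strand of the locus.

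**Figure D4:**
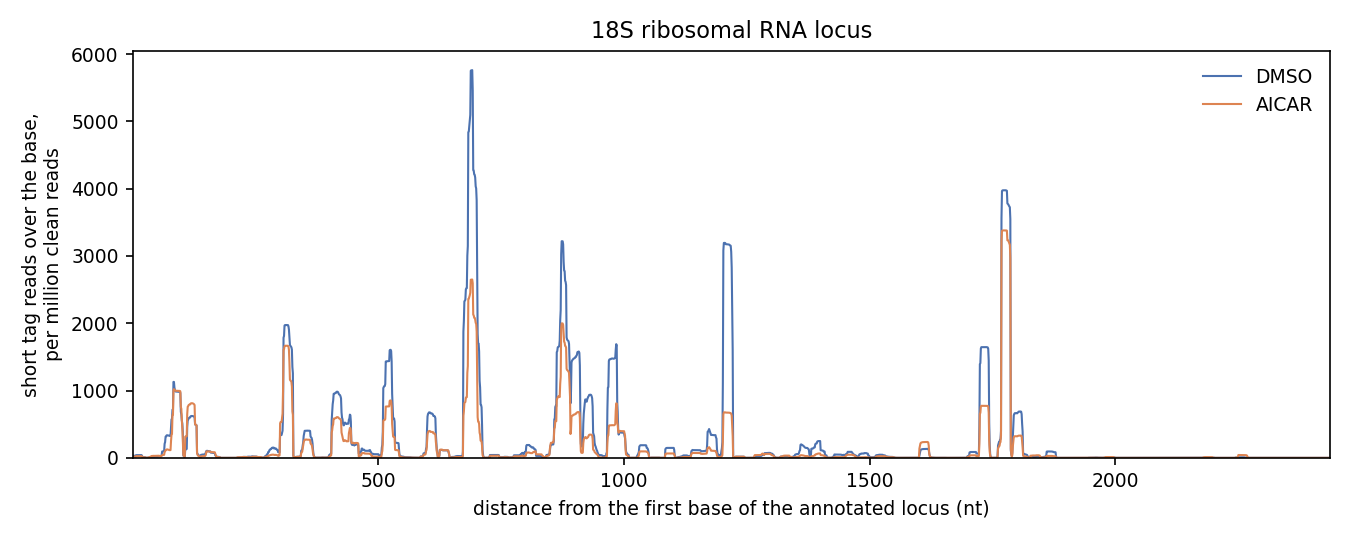
Short tag reads over each base of the 18S rRNA locus, in RPM, against the distance in nt from the first base of the annotated locus, with DMSO in blue and AICAR in orange. Of the 8 peaks chosen as the highest in DMSO, that at 1205 nt differs most in ratio, with 3195 RPM in DMSO and 677 RPM in AICAR. Peaks of the AICAR library were not sought on their own.

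In windows of 200 nt, the ratio ranged from 0.251 (1201 to 1400 nt) to 0.988 (1 to 200 nt) over the first 2000 nt. Past the part with high coverage the direction was the opposite: from 2001 to 2400 nt, 23 tags had 258 reads in DMSO and 1110 in AICAR, a ratio of 3.85 (3.36 to 4.42). Gm26917, an annotated entry upstream on the same strand, had 2101 and 1942 reads (0.827, 0.777 to 0.880).

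A start position shared by tags of many lengths shows how the difference moves with length inside 1 RNA. The start with the most reads among those with tags of 18, 19 and 20 nt lies at position 39848120 of chromosome 17. The bases past position 17 of the tag are in capitals, to mark where the tags end.
ladder 18 nt: agaagacggtcgaacttG
ladder 19 nt: agaagacggtcgaacttGA
ladder 20 nt: agaagacggtcgaacttGAC
ladder 22 nt: agaagacggtcgaacttGACTA
ladder 23 nt: agaagacggtcgaacttGACTAT

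At this start the reads stood at 19 nt and at 22 and 23 nt. The tag of 18 nt had 2697 reads in DMSO and 3214 in AICAR (1.07, 1.01 to 1.12), and that of 20 nt had 828 and 1776 (1.92, 1.77 to 2.09). The tag of 22 nt rose from 45801 to 84888 reads (1.66, 1.64 to 1.68) and that of 23 nt from 14219 to 40710 (2.56, 2.51 to 2.61). Only the 19 nt tag, which is 18S locus tag 1, had a ratio below 1 among these 5 lengths.

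The same comparison was made for all starts. Tags were joined by their first 18 bases, and 1632 such families had at least 100 reads on each of the short and the longer tags. The median log2 ratio was -0.77 for the short tags and -0.14 for the longer tags of these families, and the short tags had the lower ratio in 1263 families (77.4%). In 2080 families with 1000 reads or more, the median share of reads on 18 to 20 nt was 18.3% in DMSO and 12.8% in AICAR.

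Most short tags were parts of longer ones. Of the 24428 tags, 16382 (67.1%) were the first bases of a longer tag with at least 10 reads, and they held 95.6% of the short tag reads in DMSO and 95.2% in AICAR. The last bases of a longer tag were found for 13520 (55.3%), with 86.9% of the reads in each library. Tags that were only first bases had a ratio of 0.774 (0.770 to 0.777), and those that were only last bases had 0.897 (0.888 to 0.906). In no longer tag were 4319 (17.7%), which held 1.86% of the reads in DMSO and 1.89% in AICAR.

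The first and last bases differed in composition from the whole tags. By reads, the first base was A in 32.4%, C in 31.8%, T in 21.99% and G in 13.8% of the DMSO reads, whereas G was the most common base over all positions, at 36.4%. The last base was G in 38.01% and A in 30.2% of the DMSO reads, and C in 12.2%. Hairpin tags of the same lengths ended in T in 56.9% of the reads. Non-hairpin tags of 21 to 23 nt were more alike, with G last in 39.5% and A last in 32.6% of the DMSO reads. Counted once each, the short tags began with A in 32.6% and ended in A in 30.5% of cases.

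Between the libraries, A at the first base rose from 32.4% to 38.2% of the reads and C fell from 31.8% to 26.2%. At the last base, T rose from 19.6% to 25.7% and G fell from 38.01% to 32.5%. Non-hairpin tags of 21 to 23 nt moved in the same directions, so these shifts were not particular to the short tags. Their first A went from 26.8% to 31.4% and first C from 32.5% to 28.6%. Their last T went from 16.4% to 19.9% and last G from 39.5% to 38.2%. Short tags ending in T had a ratio of 1.02 (1.01 to 1.02), while those ending in G had 0.663 (0.661 to 0.664). The median log2 ratio of compared tags was below 0 for both, at -0.46 for 1128 tags ending in T and -0.78 for 1663 ending in G. Without the 10 most abundant tags, the difference at the first A was 2.29 percentage points in place of 5.77, while that at the last T was 5.36 in place of 6.11. With each tag counted once per library, the differences were 0.196 percentage points for the first A and 0.127 for the last T. Since 22757 of the 24428 tags were read in both libraries, this count could differ little. It does not show how many tags shared the change. Unmatched tags moved from 30.1% to 37.2% A at the first base, and rRNA tags from 39.97% to 44.5%.

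**Figure D5:**
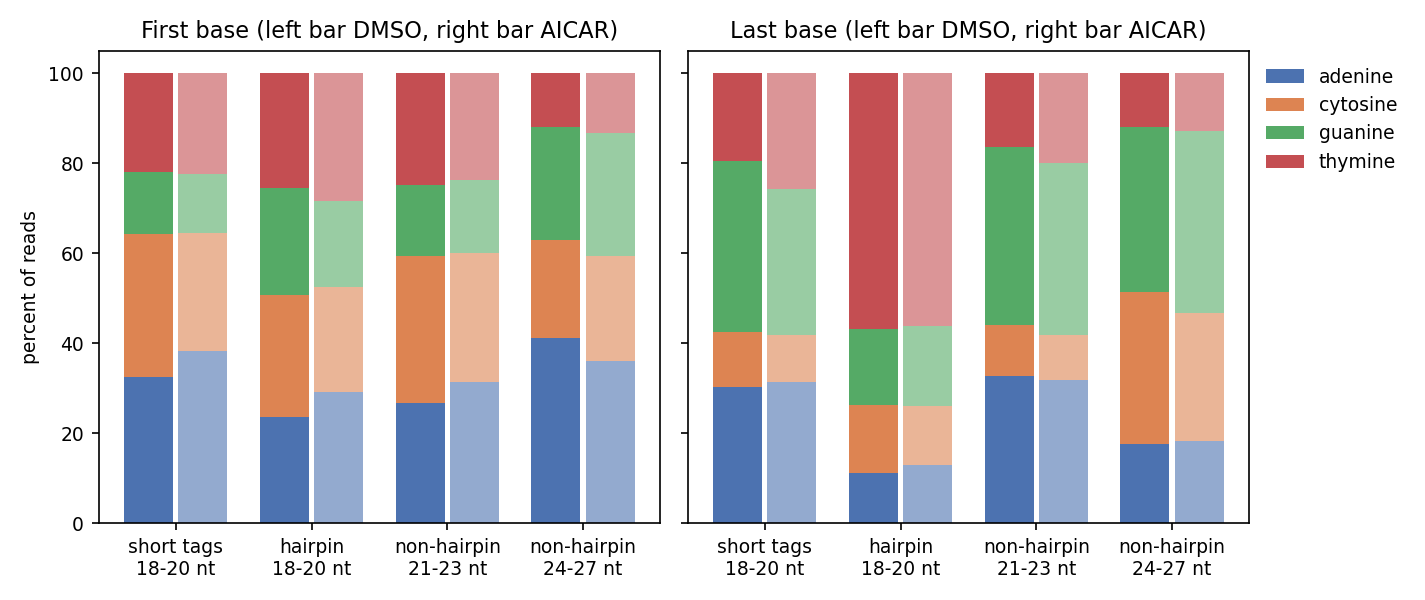
Percent of reads with each base at the first (left) and the last (right) position, for the short tags and 3 other sets, with DMSO as the left, darker bar of each pair and AICAR as the right, paler bar. The short tags begin with guanine less often than with any other base, as do non-hairpin tags of 21 to 23 nt. Hairpin tags of 18 to 20 nt end in thymine in over 50% of the reads.

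GC content moved with the ratio. Short tags under 40% GC had a ratio of 0.940 (0.935 to 0.945), those from 50% to under 60% had 0.761 (0.759 to 0.763), and those of 70% and above had 0.635 (0.632 to 0.637). The median log2 ratio of compared tags went from -0.38 in the first of these groups to -0.83 in the last. The part of GC content in the other differences was not tested.

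The tRNA letters were found in few short tags. An end in CCA was found in 475 (1.94%), with 0.930% of the reads in DMSO and 0.823% in AICAR, and of non-hairpin tags of 21 to 23 nt 3.28% ended so, with 3.93% and 3.49% of their reads. Reads on the short tags with CCA fell from 32489 to 24922 (0.686, 0.675 to 0.698), and the ratio was 0.404 at 18 nt, 0.773 at 19 nt and 0.807 at 20 nt. As the end of a tag of 30 nt or more with the B box core, 8 were found, with 445 reads in DMSO and 171 in AICAR (0.344, 0.287 to 0.411). With or without their CCA, 71 were the end of a longer tag of any length with this core (6780 and 4852 reads, 0.640, 0.617 to 0.664). The B box core GGTTCGA was held by 163 short tags (0.667%) and by 0.848% of the non-hairpin tags of 21 to 23 nt, and the A box letters TAGCTCA by 134 (0.549%) and 0.652%. Short tags with the B box core had 28055 reads in DMSO and 29435 in AICAR (0.939, 0.923 to 0.954). Those with the A box letters had 38059 and 34647 (0.814, 0.803 to 0.826). Only the given strand was searched, as tags are read in the direction of the RNA, and the motifs do not overlap each other.

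Tags that began with TTC, the letters that open the T loop in many tRNAs, showed a base that varied. All non-hairpin tags of these lengths, also under 10 reads, were grouped by equality at all other positions, and groups with at least 1000 reads were kept. At position 5, counted from the 5′ end, 18 of 23 groups held more than 1 base with at least 10% of the reads on the minor forms, while 4 of 33 did at position 4, 9 of 30 at position 6 and 0 of 38 at each position from 7 to 12. In the largest group, of 20 nt with 53578 reads in DMSO and 43754 in AICAR, the form that A5T names held 43.9% of the reads in DMSO and 41.3% in AICAR, and the form that A5G names held 32.0% and 29.2%. These tokens give the group's A form first. In many tRNAs the adenosine at this place of the T loop is methylated, but modification was not measured here.

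Mitochondrial tRNA was the group that was higher in AICAR. Its 59 short tags rose from 1172 to 2459 reads (1.88, 1.75 to 2.01), and 5 of the 8 compared tags were at least 2-fold higher and 0 lower, against 22.5% and 24.5% over all tags. Of the 15 tRNA genes with reads in both libraries all had a ratio above 1, and for 12 of them the interval lay above 1. The tag of mt-Tc with the most reads, at chrM:5214-5231 on the minus strand inside this tRNA for cysteine, is shown beside the most abundant tags of 3 nuclear RNAs, each with its first and last base in capitals.
mt-Tc: TtgcaaattcgaaggtgT
Rnu2-10: TggatttttggaagtaggaG
Snord14d: TcgctgtgatgatggattC
Rnu3b3: GccattgatgatcgttcttC

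The mt-Tc tag had 286 reads in DMSO and 494 in AICAR (1.55, 1.33 to 1.79), and all 8 tags of mt-Tc together had 559 and 1224 (1.96, 1.77 to 2.17). The tRNA genes mt-Tg (94 and 216 reads) and mt-Te (68 and 171 reads) had ratios of 2.06 and 2.25. The 54 tags of mitochondrial rRNA had 1146 and 1229 reads (0.960, 0.885 to 1.04), but its 2 genes went apart: mt-Rnr1 had 830 and 816 reads (0.880, 0.798 to 0.970) and mt-Rnr2 316 and 413 (1.17, 1.01 to 1.36). Tags of mitochondrial rRNA of 21 to 23 nt had a ratio of 1.73 (1.63 to 1.84). Mitochondrial tRNA tags of 21 to 23 nt had a ratio of 2.96 (2.74 to 3.19), and those of 24 to 27 nt 2.35 (2.02 to 2.74), so here too the shorter tags had the lower value.

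Small nuclear RNAs, which build the spliceosome, were lower. Their 111 tags had 11286 reads in DMSO and 6873 in AICAR (0.545, 0.529 to 0.561). For snRNA tags of 21 to 23 nt the ratio was 1.06 (1.03 to 1.09) and for those of 24 to 27 nt 0.817 (0.792 to 0.844). U2 snRNA carried most reads of the short snRNA tags, with 8290 and 4963 on the 29 tags of Rnu2-10 (chr11:101658238-101658428) and the copies that share all these tags. The Rnu2-10 tag shown, at chr11:101658333-101658352, had 2010 and 1546 reads (0.688, 0.644 to 0.736). U1 snRNA, under Rnu1a1 and copies, had 1772 and 1092 reads (0.551, 0.511 to 0.595). Gm22423, an snRNA gene with 5 tags, had 878 and 364 reads (0.371, 0.327 to 0.420). Of the 29 compared snRNA tags 13 (44.8%) were at least 2-fold lower and 0 higher, against 24.5% and 22.5% over all tags, and the share of lower tags was near the 40.3% of all short tags.

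Small nucleolar RNAs, which guide the modification of rRNA, were mixed. All 244 tags together had 13091 and 11062 reads (0.756, 0.737 to 0.775). Families were told apart by gene symbol alone, so tags that match only genes with other symbols are in none of them. RNAs with a Snord symbol, which are C/D box RNAs that guide methylation, had 3967 and 4308 reads (0.972, 0.930 to 1.01). Of these reads, 2777 and 3013 lay on Snord14c and Snord14d. Among their 9 compared tags 0 were past 2-fold in either direction, against 24.5% lower and 22.5% higher over all tags. H/ACA RNAs, which guide pseudouridylation, had 1142 and 485 reads (0.380, 0.341 to 0.423). The U3 genes, whose RNA takes part in 18S rRNA processing, were counted apart and had 4342 and 2334 (0.481, 0.457 to 0.506). Over all 244 tags, those that began within the first 3 bases of their RNA had a ratio of 0.979 (0.942 to 1.02). Those that ended within its last 3 bases had 1.02 (0.952 to 1.09), and those inside 0.522 (0.501 to 0.543). Positions were not split by RNA family, so position and family cannot be told apart here. The gene with the largest rise among those with 1000 reads or more, Gm25894, had 703 and 1012 reads (1.29, 1.17 to 1.42), and that with the largest fall, Gm25203, 2041 and 441 (0.193, 0.174 to 0.214). The Snord14d tag shown, at chr9:40803995-40804013, had 946 and 1373 reads (1.30, 1.19 to 1.41), and Snord14c shares it. The Rnu3b3 tag, at chr11:87448778-87448797, fell from 898 to 51 reads (0.0508, 0.0375 to 0.0674), and Rnu3b1, Rnu3b2 and Rnu3b4 share it.

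Other short RNAs of RNA polymerase III were scarce. The 7SL RNA of the signal recognition particle had 813 and 539 reads (0.593, 0.531 to 0.662), 7SK, which binds the elongation factor P-TEFb, had 415 and 186 (0.401, 0.335 to 0.478), and Y RNA had 178 and 71 (0.357, 0.267 to 0.472). RNase P RNA, which cuts tRNA precursors, had 198 and 56 reads (0.253, 0.185 to 0.342), and RNase MRP RNA had 48 and 19 (0.354, 0.197 to 0.614). No short tag matched a vault RNA or a Cajal body RNA by symbol. All 5 of these RNAs had a ratio below 1.

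Matches to protein-coding transcripts stood mostly in narrow windows within UTRs. Of the 157698 reads in DMSO and 98950 in AICAR (0.561, 0.557 to 0.566), 116804 and 69677 matched Lars2, the mitochondrial leucyl-tRNA synthetase (0.534, 0.529 to 0.539). Within 227 nt of the Lars2 UTR, at chr9:123461960-123462186, lay 90% of its reads. Of its 241 tags, 142 also matched transcripts of other groups. A match to Lars2 does not show that a read came from its message, and the transcripts used hold only part of the rRNA precursor. Whether the Lars2 reads are pieces of the message or of rRNA was not tested. Pabpc1, a poly(A)-binding protein, had 4127 and 2513 reads (0.545, 0.518 to 0.573), mainly at chr15:36595749-36595768. Tmem245 had the largest fall among protein-coding genes with 1000 reads or more (4125 to 694 reads, 0.151, 0.139 to 0.163) on the 16 tags left to this group. All 25 short tags that match its transcript had 4232 and 871 reads (0.184, 0.171 to 0.198), and 90% of these lay within 55 nt of its UTR at chr4:56870741-56870795. Messages of ribosomal proteins had 1464 and 786 reads on 113 tags (0.480, 0.440 to 0.524), with the single compared tag at least 2-fold higher, and those of histones 238 and 88 on 19 tags (0.331, 0.256 to 0.424).

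Long non-coding RNAs were few and mixed. Their 113 tags had 11020 and 9099 reads (0.739, 0.718 to 0.760), and Gm15564 carried most of them with 8815 and 6997 reads (0.710, 0.688 to 0.733) on the 32 tags that matched no group earlier in the order. All 69 short tags that match its transcript, those also counted in other groups included, had 51771 and 35701 reads (0.617, 0.609 to 0.625). Gm43846 went the other way, with 567 and 864 reads on 19 tags (1.36, 1.22 to 1.52), as did Gm40548 with 180 and 456 reads on 5 tags (2.27, 1.90 to 2.71). In the group of other transcripts, tags under Hspa8, a heat shock chaperone gene that hosts Snord14 RNAs in its introns, had 853 and 1234 reads (1.29, 1.19 to 1.41) on the 7 tags left to this group. Over all 36 short tags that match its transcript the reads were 3847 and 4397, and the ratio of 1.02 (0.979 to 1.07) had 1 within its interval. The 107 tags of this group together had 3390 and 3284 reads (0.867, 0.826 to 0.910).

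Some short tags were far higher in AICAR, and these had no annotated source. Among the 868 short tags with 1000 reads or more, 75 were at least 5-fold higher, and they rose from 32450 to 410070 reads, or from 0.929% to 13.5% of the short tag reads. The share of tags of all lengths past these limits was not counted, so whether short tags differ in this was not tested. None of the 75 matched the sense strand of a transcript, against 157 of the 868 (18.1%), and their median GC content was 45% against 55%. Of the 75, 69 were the first bases of a longer tag, and the 355 longer tags with the same first 18 bases rose alike, from 12908 to 220029 reads (15.3, 15.0 to 15.5). The largest rise, of a tag of 20 nt, was from 19 to 1457 reads (68.6, 43.8 to 114), and the tenth, also of 20 nt, from 282 to 8721 (27.7, 24.6 to 31.3). Whether these tags are of mouse origin was not tested.

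The largest falls were smaller in size. Among the same 868 tags, 320 were at least 2-fold lower and 35 were at 0.2-fold or below, with 181536 reads in DMSO and 35486 in AICAR, and 7 of the 35 matched the sense strand of a transcript. The largest fall was that of an unmatched 18 nt tag, from 953 to 90 reads (0.0845, 0.0673 to 0.105). A tag of 20 nt that matches Tmem245 and Tgfb1 fell from 2494 to 391 reads (0.140, 0.126 to 0.156), and a tag of 18 nt of Gm42418 fell from 3272 to 381 reads (0.104, 0.0934 to 0.116). Of the 35, 14 were 18 nt long and 11 were 20 nt long, while of the 75 tags that rose, 7 were 18 nt long and 46 were 20 nt long. Among all 868 tags, 161 were 18 nt long and 395 were 20 nt long.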

How the data were processed

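Per the authors' methods, total RNA was size-selected for 18 nt to 30 nt, ligated to adaptors, amplified and sequenced, and low-quality and contaminant reads and reads too short were removed. The authors deposited, for each library, the length, read count and sequence of every distinct tag, without alignment or normalization. The authors mapped tags to the genome with SOAP, and by the paper a smaller share of the clean reads mapped in AICAR than in DMSO. That mapping and the build mm9 in the submitters' processing notes were not used here. Mapped reads were therefore not tried as a denominator.

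Tags were matched without mismatch to both strands of 141767 GENCODE vM21 transcripts (GRCm38), of which 2202 are miRNA hairpins. A tag that matched several groups was given the first in a fixed order, from rRNA to unmatched, and a gene's reads are those of the tags given to its group unless stated otherwise. Tags with at least 100 reads over both libraries were compared, and a 2-fold difference was counted. Named tags are the 10 with the most reads and the 10 largest rises and falls with 1000 reads or more, and named genes were taken from the 5 with the most reads of each group and the largest rise and fall among those with 1000 reads or more. Tags under that rule that are not described singly had no transcript match. The tags and lists were chosen with earlier results of these data known. Printed sequences were read from the deposited tags, and none is printed for unmatched tags. The planned match to the genome was not made, and a group for the opposite strand of transcripts took its place.

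Alternatives were other denominators (reads on hairpins, TMM, median-ratio), read minimums, lengths, hairpin mismatches and the weight of abundant tags; 1 mismatch to short RNAs, and base composition without the 10 most abundant tags, were added after seeing the data. The depth is 18870345 and 21091226 reads, and 3 reads equal 0.159 RPM in DMSO and 0.142 RPM in AICAR. The matching and the ratios were tested on simulated data. Python 3.11.15, numpy 2.4.6, scipy 1.17.1, matplotlib 3.10.9, R 4.3.3 and edgeR 4.0.16 (TMM only) were used.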

Additional observations from a re-analysis of the deposited data

How the results depend on the processing

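The ratio of all short tags, 0.776, stayed below 1 under every alternative: 0.574 per hairpin read, 0.808 with TMM, 0.809 with median-ratio scaling, 0.780 without a minimum of reads, 0.769 with a minimum of 100 reads, 0.782 without tags within 1 mismatch of a hairpin, 0.616, 0.768 and 0.837 at 18, 19 and 20 nt, and 0.728 without the 10 most abundant tags. In the same order of denominators, the ratio of the rRNA group, without the 18S tags opposite CT010467.1, was 0.384, 0.541 and 0.542. For unmatched tags the ratio was 0.624, 0.879 and 0.880. At 18, 19 and 20 nt the rRNA ratio was 0.407, 0.611 and 0.467 and that of unmatched tags 0.691, 0.817 and 0.913. Without the 10 most abundant tags they were 0.473 and 0.791, and with 1 mismatch allowed, which gave a source to 389 unmatched tags, 0.566 and 0.847. Unmatched tags gave 0.847 without a minimum of reads, 0.839 with 100 reads and 0.857 without tags near hairpins.

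Tags past 2-fold numbered 103, 300 and 506 higher and 588, 696 and 719 lower at 18, 19 and 20 nt, since fewer tags enter, 6552 and 9859 with a minimum of 10 reads for a compared tag, and 117 and 320 with 1000 reads. Other denominators left these counts within 1.5 times: 806 to 928 higher and 1900 to 2753 lower.

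The 10 most abundant tags held, in DMSO and AICAR, 11.9% and 15.6% without a minimum of reads, 14.1% and 18.7% with 100 reads, 9.90% and 15.1% without tags near hairpins, and 20.2% and 33.2%, 19.5% and 25.5%, and 23.7% and 24.3% at 18, 19 and 20 nt. The rise of A at the first base, in percentage points, was 5.53 without a minimum, 6.19 with 100 reads, 6.84, 5.85 and 5.96 by length, 2.29 without the 10 most abundant tags and 0.196 with each tag counted once. That of T at the last base was 5.69, 6.46, 9.57, 10.002 and 2.80, 5.36 and 0.127 in the same order, and 6.26 without tags near hairpins. The values with each tag counted once were bound to be small, because most tags were read in both libraries. The group of other transcripts, with a ratio of 0.867, turned to 1.03 with a minimum of 100 reads and to 1.10 at 19 nt. The cause of these changes was not tested. No paired analysis was possible because each condition has 1 library. Depth limits groups of few reads, such as RNase MRP RNA, while for the large groups the spread between cultures, not measured here, is the limit.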
